A study of Mus musculus with 24 samples.

Results

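The M1-polarized and M2-polarized macrophage cultures made up 8 of the 24 samples of the series, 4 of each. They were taken by their group labels, with no use of measured values, and were set directly against each other. Both kinds of culture came from bone marrow of naive C57BL/6 male mice aged 10 weeks. Per the labels' protocols, adherent mononuclear progenitors were grown for 7 days in RPMI medium with 20% supernatant of L929 cells, a source of the macrophage growth factor CSF-1, and 10% fetal bovine serum. M1 cultures received interferon-gamma at 50 ng/mL together with lipopolysaccharide (LPS, a bacterial cell wall component) at 10 ng/mL at day 3. M2 cultures received, as their label gives it, IL-10 at 20 ng/mL at day 3, and no label named IL-4 or IL-13. Unpolarized cultures of naive mice (M0, n = 4), for which the labels name the same medium and no added cytokine, are quoted for their levels only. They entered no test in the main fit. An alternative fit of all 16 marrow arrays held them too, together with M0 cultures from mice labelled post-sepsis, and still compared M1 with M2. The series' design text puts the marrow cultures in 2 experiments with 3 samples per group, of which the best 4 per group were hybridised. Which culture came from which experiment was not given, so the p-values measure the spread between chosen cultures, part of which may be technical.

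Macrophages change their program with the signals they meet. Interferon-gamma acts through JAK kinases and STAT transcription factors, and LPS acts through CD14 and Toll-like receptor 4 on NF-kB and on the factors that start an interferon response. Together they give the classical, or M1, state, known for nitric oxide, inflammatory cytokines, antigen presentation and a shift to glycolysis. IL-4 and IL-13 act through STAT6 and give the alternative state, known for arginase 1, lectin receptors and chitinase-like proteins, while IL-10 acts through STAT3, raises the feedback inhibitor SOCS3 and dampens cytokine output.

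Each sample was measured on a 1-colour array. A level below is the log2 intensity of a gene's probe minus the 75th percentile of its array, so a level of 0 lies at that percentile, and a difference of 1 between groups is a 2-fold change. Group levels are means ± SD over 4 arrays, differences are M1 minus M2 (± SE where printed), and adjusted p-values come from limma's moderated test over everything measured. Levels of different probes are not compared. Groups follow the labels of the scanner files. In the authors' processed value table, which was not used, 7 of the 8 M1 and M2 columns were matched best by the scanner file of a sample from another group. The files do not settle which of these sources carries the right labels, and every difference below rests on those of the scanner files. On the 8 arrays the 75th percentile lay between 387.452 and 635.338 intensity units, 57.356% to 70.026% of spots were well above background, and no spot was saturated. Their number, 4 per group, limits the precision. All 17 macrophage identity genes were well above background on 3 or more arrays of either group. The CSF-1 receptor gene Csf1r averaged 8.49 in M1 and 8.76 in M2 cultures, the F4/80 gene Adgre1 6.82 in M1 and 6.09 in M2 cultures, and Cd68 7.59 in M1 and 8.55 in M2 cultures. Of these 17 genes, 7 were higher and 5 lower in M1 cultures, and their differences ran from -3.85 to 6.39.

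The 2 programs differed across much of the array. Of 28741 genes and unnamed probes tested, 11065 passed limma's moderated test at a Benjamini-Hochberg adjusted p of 0.05, which is 38.5%. Among them 5663 (19.7%) were higher and 5402 (18.8%) lower in M1 cultures. Of 16248 named genes tested, 7781 passed, 4314 higher and 3467 lower in M1 cultures, a larger share than over everything tested. The lists below hold named genes, so their counts of higher and lower members stand against these. The ranges of the 2 groups did not overlap for 11076 genes and probes, also 38.5%. The difference exceeded 3 on the log2 scale for 479 of those higher and 430 of those lower in M1 cultures. Arrays of the same group correlated at 0.9487 to 0.9917 over all genes tested, and arrays of different groups at 0.8632 to 0.9226. The 8 arrays lay on 3 slides that each held both groups. Of the 11065 calls, 11041 (99.8%) had the same sign within every slide, as did every called gene named below. For 10311 of the calls the ranges of the groups did not overlap, which fixes that sign in advance. The within-slide values here and below come from the same few arrays and are no separate replication. The median difference over everything tested, unnamed probes included, was -0.03, and shifts of the gene lists below are read against it. No median of the named genes alone was computed, and more of these passed as higher than as lower. List medians near 0 are therefore uncertain in sign.

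**Figure D1:**
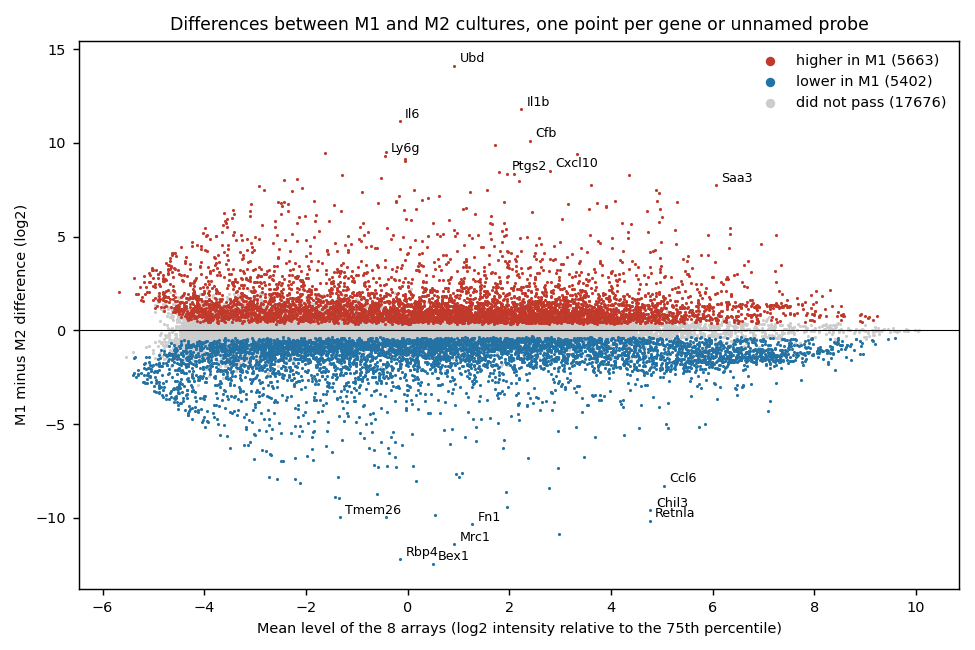
M1 minus M2 difference (log2) of each gene or unnamed probe against its mean level over the 8 arrays, with the 5663 that were higher in M1 cultures in red, the 5402 that were lower in blue and the 17676 that did not pass in grey. Points past 10 in either direction include Il1b and Cfb above and Fn1 and Retnla below, and the 2 colours spread about equally far.

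Among named genes well above background on 3 or more arrays of both groups, the largest rise in M1 cultures was in Il1b and the next in Cfb. Il1b, which encodes the inflammasome-processed cytokine IL-1 beta, had levels of 8.15, 8.07, 8.04 and 8.23 in M1 cultures, against -3.84, -3.72, -3.34 and -3.75 in M2 cultures. No M1 culture came near an M2 culture, and the difference was 11.78 ± 0.14 (± SE), a 3527-fold rise (adjusted p = 4.42e-09). The M0 level of Il1b averaged -0.18. Cfb, the factor B of the alternative complement pathway, stood at 7.52, 7.36, 7.40 and 7.49 in M1 cultures, against -2.74, -2.85, -2.49 and -2.53 in M2 cultures, a 1096-fold rise (adjusted p = 4.69e-09). The receptors for bacterial formyl peptides Fpr1 and Fpr2 rose by 9.91 and 8.35, and the acute phase gene Saa3 by 7.74. Fpr2 differed more among M2 cultures, at -1.16, -1.47, -2.79 and -2.92, than among M1 cultures, at 6.39, 6.12, 6.14 and 6.44, without the groups touching. Ly6a and Ly6c1, GPI-anchored surface proteins that interferon induces, rose by 9.42 and 8.28. Ptgs2, the inducible cyclooxygenase, rose by 8.35, the activin subunit gene Inhba by 7.99, and the TNF receptor adaptor Traf1 by 7.75. Cxcl10 and Gbp4, described with their families below, complete the 12 largest rises among genes measured in this way on both sides. Il1a and Cxcl3, given with the cytokines and chemokines, had larger differences than some of these 12 but were well above background on fewer than 3 M2 arrays.

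Some genes were well above background on no M2 array, so their rise is a lower bound. Ubd, a ubiquitin-like modifier induced by interferon-gamma and TNF, had levels of 8.03, 7.83, 7.89 and 8.15 in M1 cultures and was at least 6302-fold higher there (adjusted p = 1.49e-08). Ly6g was at least 395-fold higher and Mgarp, a mitochondrial protein, at least 216-fold. The stanniocalcin gene Stc2 and the junction protein gene F11r were at least 81.4-fold and 73.4-fold higher. Ly6g is used as a neutrophil marker, and its probe belongs to a family of similar Ly6 genes that may share signal.

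Among named genes well above background on 3 or more arrays of both groups, Fn1 and Retnla fell the most in M1 cultures. Fn1, the fibronectin gene, had levels of -3.62, -4.37, -3.79 and -3.82 in M1 cultures, against 6.56, 6.54, 6.13 and 6.55 in M2 cultures, a 1300.0-fold difference (adjusted p = 1.49e-08), and Retnla is described with the alternative activation markers. Itgax, which encodes the integrin CD11c, stood at -2.52, -2.66, -2.87 and -2.97 in M1 cultures, against 6.75, 6.38, 6.77 and 6.70 in M2 cultures, and was 677-fold lower in M1 cultures. Its M0 level averaged 0.11, between the other two groups. The membrane protein gene Plxdc2 fell by 8.63, the carbonyl reductase gene Cbr2 by 7.27, and Atp6v0d2, a subunit of the vacuolar proton pump, by 7.34. The genes Bex1, Rbp4 (a retinol carrier) and Tmem26 were well above background on no M1 array, and were at least 2265-fold, 1349-fold and 272-fold lower there. M2 levels of Bex1 were 6.71, 6.75, 6.53 and 6.88, and M0 cultures averaged -1.05.

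Receptors for the polarizing signals split between directions. Of 20 measured, 9 were higher and 5 lower in M1 cultures, with a median difference of 0.18. The LPS co-receptor Cd14 stood at 7.97, 7.81, 7.84 and 7.95 in M1 cultures, against 1.76, 1.24, 1.69 and 1.33 in M2 cultures, a rise of 6.39 ± 0.15 (adjusted p = 3.52e-08). M0 cultures averaged 5.52 for Cd14, which places the M2 cultures below and the M1 cultures above them. Tlr4 itself was lower in M1 cultures by 0.94, and its partner Ly96 gave -0.12 without passing (adjusted p = 0.719). The ligand-binding chain of the interferon-gamma receptor, Ifngr1, fell by 1.04 in M1 cultures, whereas Ifngr2 gave 0.06 (adjusted p = 0.79). For IL-10, Il10rb was lower in M1 cultures by 0.97, while the ligand-binding chain Il10ra averaged 2.32 in M1 and 2.03 in M2 cultures and did not pass (adjusted p = 0.19). For IL-4 and IL-13, Il4ra, Il13ra1 and Il2rg were all higher in M1 cultures, by 0.54, 3.59 and 1.72. The small rise of Il4ra passed at 0.0213 and no longer passed without M1 replicate 1 or 4 or as the mean of its probes, at 0.10. The Il13ra1 probe was well above background on only 2 of 4 M2 arrays.

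Among STAT and IRF transducers and related transcription factors, 15 of 27 were higher and 8 lower in M1 cultures. Irf7, the amplifier of the type I interferon response, stood at 5.41, 5.14, 5.54 and 5.20 in M1 cultures, against -1.88, -1.50, -1.46 and -1.36 in M2 cultures, a 117-fold rise (adjusted p = 3.22e-08). Irf1, a direct target of interferon-gamma signalling, had levels of 8.52, 8.19, 8.20 and 8.37 in M1 cultures, against 5.23, 5.21, 5.08 and 5.23 in M2 cultures, and M0 cultures averaged 4.62. The interferon-inducible factor Batf2 rose by 4.93, and Stat2 and Irf9, components of the ISGF3 complex, by 3.01 and 2.11. Stat3, the transducer of IL-10, was higher in M1 cultures by 1.93, and Stat6, the transducer of IL-4, by 0.74. Irf8 and Irf5 did not pass, at 0.03 and -0.06 (adjusted p = 0.87 and 0.852).

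The 8 that fell were led by factors known from alternative activation. Egr2, a STAT6-induced zinc finger factor, averaged -2.90 ± 0.42 in M1 cultures and 4.92 ± 0.14 in M2 cultures, 227-fold lower in M1 cultures (adjusted p = 6.73e-08). Irf4, which acts with STAT6 target genes in M2 polarization, averaged -4.52 ± 0.69 in M1 cultures and 0.83 ± 0.06 in M2 cultures, with a single M1 array well above background and an M0 mean of -3.44. The lipid-sensing nuclear receptor Pparg fell by 6.26 in M1 cultures, the growth regulator Myc by 5.09 and Batf3 by 4.76. The Myc probe was well above background on 1 of 4 M1 arrays. Members that fell also included Stat5a and Maf.

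Most feedback inhibitors were higher in M1 cultures. Of 20 measured, 13 were higher and 5 lower in M1 cultures, with a median of 1.73 and within-slide medians of 1.78, 1.82 and 1.60. With each probe counted by itself the median was 0.51. Socs3, the inhibitor of IL-6-type signalling that IL-10 induces through STAT3, had levels of 7.73, 7.42, 7.36 and 7.59 in M1 cultures, against 0.78, 0.54, 0.72 and 0.53 in M2 cultures, a 118-fold rise in M1 cultures (adjusted p = 1.49e-08). In M0 cultures Socs3 averaged 1.44 ± 0.30, and every M2 culture lay below the lowest M0 value of 1.05. Socs1, the inhibitor of JAK kinases downstream of interferon and IL-4, was raised less, at 4.82, 4.70, 4.80 and 4.94 in M1 cultures, against 4.15, 3.91, 4.03 and 3.80 in M2 cultures, while the M0 mean was -0.43. Cish and Socs2, known targets of STAT5, went the other way. Cish averaged 1.77 ± 0.11 in M1 cultures and 4.54 ± 0.11 in M2 cultures, a fall of 2.76 in M1 cultures (adjusted p = 7.53e-07), with M0 at -1.54. Socs2 averaged -2.82 ± 0.93 in M1 cultures and 0.44 ± 0.15 in M2 cultures, with M0 at -2.80. Inhibitors of NF-kB rose in M1 cultures: Nfkbia by 4.00, Nfkbie by 4.08, the deubiquitinase gene Tnfaip3 by 2.94 and its partner Tnip1 by 2.86. The phosphatase genes Dusp1 and Dusp2 split, with Dusp1 higher by 3.04 and Dusp2 lower by 3.97 in M1 cultures.

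**Figure D2:**
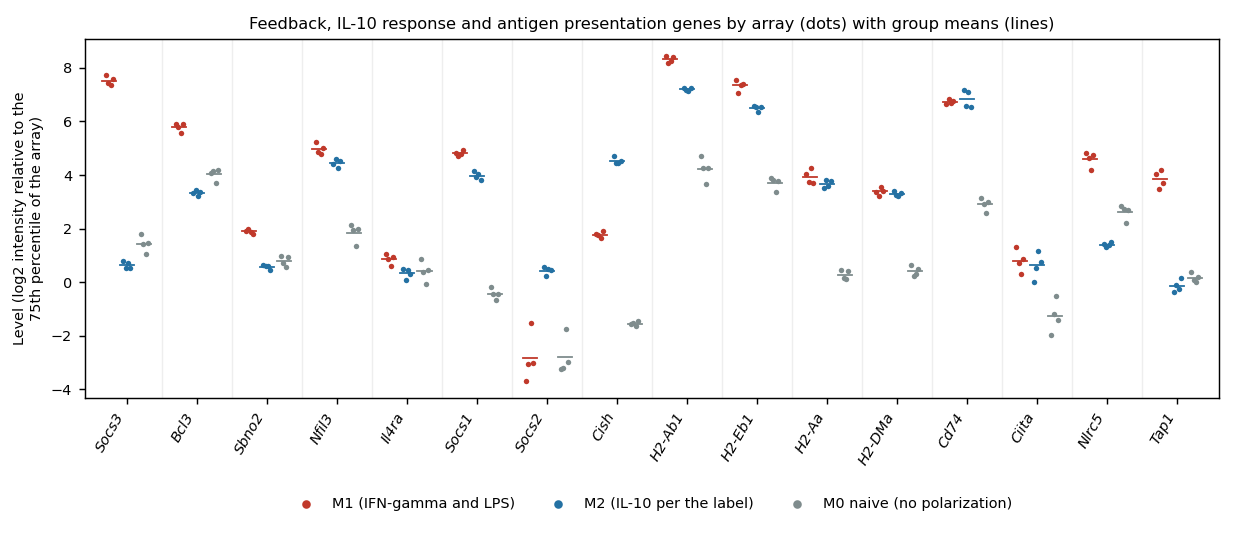
Level of feedback, IL-10 response and antigen presentation genes on each array (dots) with group means (lines), for M1, M2 and M0 naive cultures (n = 4 each). Socs3 is near 7.53 in M1 cultures and under 1 in M2 cultures, Cish and Socs2 are highest in M2 cultures, and Cd74, H2-Aa and H2-DMa lie together in M1 and M2 cultures, both above M0.

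NF-kB subunits and survival targets were higher in M1 cultures in 13 of 17 and lower in 0, with a median of 1.87 (within slides 1.70, 1.62 and 1.78). The subunits Rela, Relb and Nfkb2 rose by 1.91, 1.97 and 1.87, while Nfkb1 and Rel gave 0.37 and 0.08 and did not pass (adjusted p = 0.0836 and 0.829). The caspase-8 regulator Cflar rose by 3.79, and the inhibitor of apoptosis Birc3 by 2.31.

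The effector genes of M1 activation rose almost as a block. Of 24 measured, 23 were higher in M1 cultures and 0 lower, with a median of 3.24 (within slides 3.14, 3.20 and 3.39). With normexp background correction the median was 2.32. Nos2, the inducible nitric oxide synthase, stood at 8.91, 8.59, 8.55 and 8.82 in M1 cultures, against 2.04, 1.84, 1.85 and 1.80 in M2 cultures, a 114-fold rise (adjusted p = 1.49e-08), and M0 cultures averaged 0.38. Acod1, which makes itaconate from a Krebs cycle intermediate, had levels of 9.32, 9.10, 9.23 and 9.31 in M1 cultures, against 4.72, 4.62, 4.51 and 4.74 in M2 cultures, 24.1-fold higher in M1 cultures. The manganese superoxide dismutase gene Sod2 rose by 3.46, and Upp1, a uridine phosphorylase, by 6.50. The arginine transporter gene Slc7a2 rose by 2.72, Ass1, which regenerates arginine from citrulline, by 1.58, and Gch1, which makes the cofactor of NOS2, by 1.27. The NADPH oxidase subunit genes Cybb and Ncf4 rose by 1.92 and 0.92. Ido1 and the histamine-forming enzyme gene Hdc were well above background on no M2 array, and were at least 5.61-fold and 13.4-fold higher in M1 cultures. Car4 alone did not pass, at -0.67 (adjusted p = 0.249).

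Inflammatory cytokines were higher in M1 cultures in 17 of 22 measured and lower in 3, with a median of 3.22 (within slides 3.29, 3.21 and 3.41). With normexp background correction the median was 2.15. Il6 had levels of 5.49, 5.34, 5.17 and 5.68 in M1 cultures and was well above background on no M2 or M0 array, so it was at least 1073-fold higher in M1 than in M2 cultures (adjusted p = 4.01e-08). Tnf stood at 5.68, 5.52, 5.61 and 5.59 in M1 cultures, against -0.56, -0.95, -0.70 and -0.69 in M2 cultures, an 80.0-fold rise (adjusted p = 1.49e-08). Il1a rose by 9.16, although its probe was well above background on only 2 of 4 M2 arrays. The granulocyte factor gene Csf3 was at least 20.0-fold higher and Tnfsf10, the death ligand TRAIL, at least 13.4-fold higher in M1 cultures. The antagonists rose too, with the IL-1 receptor antagonist gene Il1rn higher by 4.76 and the IL-18 binding protein gene Il18bp by 3.86.

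Il10 itself was higher in M1 cultures, at 0.04, 0.06, 0.19 and 0.31 in M1 cultures, against -4.08, -4.11, -3.60 and -4.13 in M2 cultures, a 17.5-fold rise (adjusted p = 3.59e-07), with M0 at -2.70. Its M2 signal was dim, and with normexp background correction the rise was 2.57. The 3 genes that fell were Csf1, Il27 and Edn1, by 1.83, 0.92 and 1.00. Csf1, the growth factor that L929 supernatant also supplies, averaged 0.84 ± 0.22 in M1 cultures and 2.67 ± 0.21 in M2 cultures. The ranges of Il27 overlapped, and its call was lost without M1 replicate 3 or 4 or M2 replicate 3 or 4. Ifnb1, the interferon-beta gene, stood at -3.75, -3.84, -3.36 and -3.55 in M1 cultures, against -6.56, -2.41, -6.21 and -6.49 in M2 cultures and did not pass (adjusted p = 0.146). M2 replicate 2 alone stood apart, and without it the difference was 2.80 and passed (adjusted p = 1.85e-05). The remaining M2 levels were dimmer than those of Il6 on the same arrays, which was well above background on no M2 array. The value of 2.80 is therefore no measured size. The IL-12 subunit genes Il12a and Il12b and the IL-23 subunit gene Il23a did not reach the filter on dim probes in either group and were not tested.

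**Figure D3:**
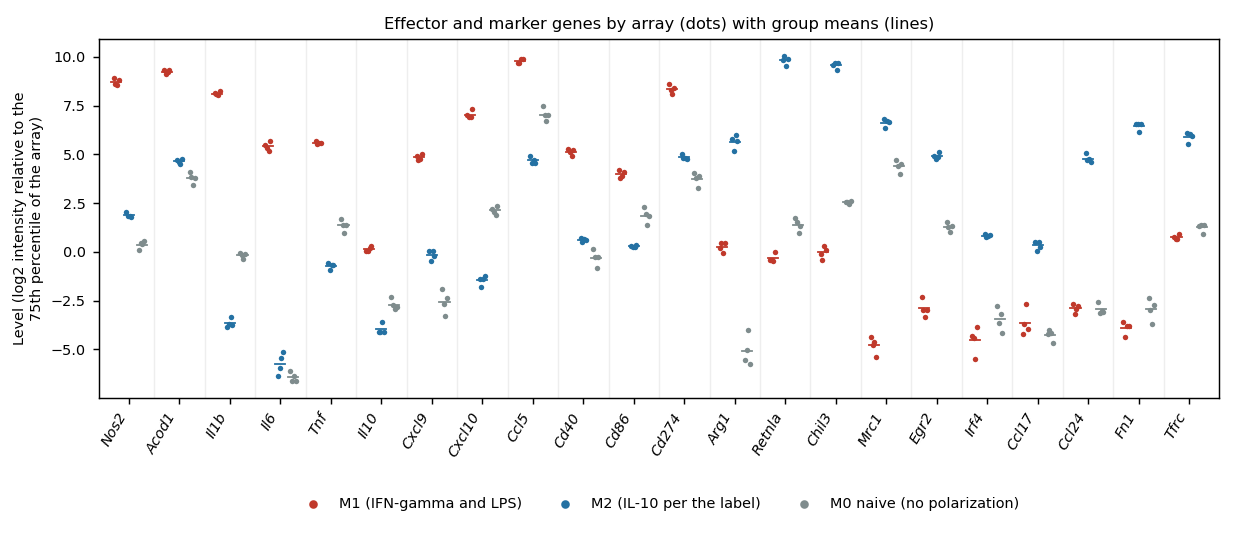
Level of effector and marker genes on each array (dots) with group means (lines), for M1, M2 and M0 naive cultures (n = 4 each). From Nos2 to Cd274 the M1 dots lie above the M2 dots, and from Arg1 to Tfrc they lie below, with no overlap in any of the genes drawn.

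Inflammatory chemokines followed the cytokines. Of 13 measured, 11 were higher in M1 cultures and 0 lower, with a median of 4.98 (within slides 5.02, 4.87 and 4.83). Cxcl10, a ligand of the T cell receptor CXCR3, stood at 7.01, 6.90, 6.93 and 7.33 in M1 cultures, against -1.41, -1.80, -1.37 and -1.24 in M2 cultures, a 362-fold rise (adjusted p = 1.49e-08), with M0 at 2.12 between them. Cxcl9, another CXCR3 ligand and an interferon-gamma target, averaged 4.85 ± 0.14 in M1 cultures and -0.14 ± 0.24 in M2 cultures. Ccl5, which attracts T cells and monocytes, averaged 9.79 ± 0.13 in M1 cultures and 4.70 ± 0.17 in M2 cultures, a 34.0-fold rise. The neutrophil attractants Cxcl2 and Cxcl3 rose by 7.17 and 9.49, and Cxcl1 was at least 90.5-fold higher. The Cxcl3 probe was well above background on 1 of 4 M2 arrays. The probe of Cxcl11, the remaining CXCR3 ligand, gave 9.13 ± 0.25 in M1 cultures and 9.12 ± 0.38 in M2 cultures, with M0 at 9.01, and did not pass (adjusted p = 0.977). Whether this probe, bright in all groups, reads Cxcl11 was not tested.

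All measured genes of the interferon response lists rose, with a doubt on the probe of Gbp5 given below. Of 29 antiviral genes, 29 were higher in M1 cultures, with a median of 3.81 (within slides 3.80, 4.30 and 3.41), and of 19 interferon-induced GTPase genes, 19 were higher, with a median of 4.10 (within slides 4.29, 3.79 and 4.22). Ifit1, which binds viral RNA lacking a methylated cap, had levels of 4.59, 4.65, 4.09 and 4.60 in M1 cultures, against -1.06, -1.52, -1.23 and -1.20 in M2 cultures, a 53.3-fold rise (adjusted p = 1.06e-07). Rsad2, the antiviral enzyme viperin, rose by 6.47, the oligoadenylate synthetase-like gene Oasl1 by 6.59, Mx2 by 6.45 and the ubiquitin-like Isg15 by 5.09. The smallest differences on this list were in Ifi204 and Trim21, at 1.41 and 1.99. M0 levels lay between the other two groups for Ifit1, Rsad2, Oasl1, Mx2 and Isg15, at 1.61, 2.88, 3.43, 0.57 and 4.73.

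The GTPases attack vacuoles of intracellular pathogens. Gbp2, a guanylate-binding protein, stood at 8.99, 8.81, 8.87 and 8.96 in M1 cultures, against 3.98, 3.63, 3.84 and 3.68 in M2 cultures, a 34.9-fold rise (adjusted p = 3.86e-08), with M0 at 2.28. Gbp4 rose by 8.44, and the immunity-related GTPases Igtp and Irgm1 by 5.74 and 3.38. Gbp5 rose by 6.75 on the probe used, but its probes disagreed. Averaged over them the rise was 3.51, and with any M1 array left out another probe was the brightest and gave -0.029 to 0.49, which did not pass. Gbp6, Gbp7 and Gbp10 have close copies of each other, as do Tgtp1 and Tgtp2, so which copy was measured is uncertain there.

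The starts of some of these genes are shown because they hold a match to a motif of the pathways above. Motifs were searched on both strands in windows that run from 250 bases before to 50 bases after the start, as RefSeq gives them on GRCm38.p6. The interferon-stimulated response element (ISRE) was searched as GAAA and GAAA with any 2 bases between them, the interferon-gamma activated site (GAS) as TTC and GAA with any 3 bases between, and the NF-kB site as GGGA and TTCC with any 2 bases between. Capitals mark the matches.
Cxcl10 (chr5:92348840-92349139, minus strand, ISRE and NF-kB site): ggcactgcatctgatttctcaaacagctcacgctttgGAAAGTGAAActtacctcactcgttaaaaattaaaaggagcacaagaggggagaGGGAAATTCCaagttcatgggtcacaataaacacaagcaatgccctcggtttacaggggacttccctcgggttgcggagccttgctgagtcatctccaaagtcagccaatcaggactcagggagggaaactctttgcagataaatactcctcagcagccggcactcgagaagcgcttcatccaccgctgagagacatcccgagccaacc
Gbp2 (chr3:142620413-142620712, plus strand, ISRE and NF-kB site): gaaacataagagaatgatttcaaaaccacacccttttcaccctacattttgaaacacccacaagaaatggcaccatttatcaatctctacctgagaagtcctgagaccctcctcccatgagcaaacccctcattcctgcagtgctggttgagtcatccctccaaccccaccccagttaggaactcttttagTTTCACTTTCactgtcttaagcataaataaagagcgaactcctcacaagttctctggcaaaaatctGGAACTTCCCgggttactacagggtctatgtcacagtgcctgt
Ifit1 (chr19:34640639-34640938, plus strand, 2 ISRE matches): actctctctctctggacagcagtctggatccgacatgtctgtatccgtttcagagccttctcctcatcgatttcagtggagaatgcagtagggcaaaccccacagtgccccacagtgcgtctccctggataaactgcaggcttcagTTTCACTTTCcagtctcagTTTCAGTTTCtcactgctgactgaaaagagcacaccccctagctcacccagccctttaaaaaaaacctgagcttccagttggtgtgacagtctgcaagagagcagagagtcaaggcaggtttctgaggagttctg
Irf1 (chr11:53769764-53770063, plus strand, GAS): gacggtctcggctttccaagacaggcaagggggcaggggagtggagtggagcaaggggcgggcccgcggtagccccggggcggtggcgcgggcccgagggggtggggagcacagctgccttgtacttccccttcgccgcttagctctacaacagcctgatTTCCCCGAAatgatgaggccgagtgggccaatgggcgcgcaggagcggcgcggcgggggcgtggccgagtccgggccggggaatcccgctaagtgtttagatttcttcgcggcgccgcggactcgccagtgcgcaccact
Il6 (chr5:30012864-30013163, plus strand, NF-kB site): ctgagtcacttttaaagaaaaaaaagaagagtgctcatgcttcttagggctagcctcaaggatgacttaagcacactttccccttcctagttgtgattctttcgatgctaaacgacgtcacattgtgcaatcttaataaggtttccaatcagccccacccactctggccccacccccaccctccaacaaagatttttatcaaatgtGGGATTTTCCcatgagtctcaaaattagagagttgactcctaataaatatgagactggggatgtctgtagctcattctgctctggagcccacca
Counted from the gene's start, the matches began at -213 (ISRE) and -159 in Cxcl10, at -104 and -85 in Ifit1, at -90 in Irf1 and at -44 in Il6. In Gbp2 the ISRE match began at -59 and the NF-kB match at 7, inside the transcript.

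An ISRE match was present in 41 of 288 windows (14.2%) of genes higher in M1 cultures by over 3 on the log2 scale, and in 7 of 265 windows (2.6%) of genes lower by over 3. It was present in 3.3% of the 12390 windows of genes tested and in 3.5% of all 27025. Among list members with a window, 9 of 10 GTPase genes (90.0%) and 12 of 21 antiviral genes (57.1%) held one. The NF-kB motif was present in 3.8% of windows of the strongly higher genes, 0.8% of those of the strongly lower genes and 1.5% of those of genes tested. The GAS motif was present in 10.1%, 5.7% and 7.4%. Among list members, GAS was held by 6 of 10 GTPase, 5 of 21 antiviral, 2 of 17 inflammatory cytokine and 3 of 17 alternative activation windows. For the NF-kB motif these counts were 2 of 10, 1 of 21, 3 of 17 and 0 of 17. These are counts of letters in a fixed window and say nothing of binding.

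Antigen presentation by class I rose in M1 cultures, by smaller steps. Of 17 measured genes, 14 were higher and 0 lower, with a median of 1.07 (within slides 1.01, 0.96 and 0.96). The peptide transporter gene Tap1 averaged 3.84 ± 0.32 in M1 cultures and -0.15 ± 0.23 in M2 cultures, a 15.9-fold rise (adjusted p = 1.41e-06), and Tap2 rose by 3.01. Nlrc5, the transactivator of class I genes, averaged 4.60 ± 0.28 in M1 cultures and 1.40 ± 0.08 in M2 cultures, and the immunoproteasome subunit genes Psmb9 and Psmb8 rose by 2.48 and 1.35. The heavy chain genes moved less, with H2-K1 higher by 0.78, and B2m gave 0.29 without passing (adjusted p = 0.108). Class I genes resemble each other closely, so a probe may read more than 1 of them.

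Class II genes gave a different picture, with 5 of 11 higher in M1 cultures, 0 lower and a median of 0.74 (within slides 0.53, 0.80 and 0.58), or 0.47 without M1 replicate 1 and 0.26 with normexp background correction. H2-Ab1, a class II beta chain, averaged 8.32 ± 0.13 in M1 cultures and 7.21 ± 0.05 in M2 cultures, higher in M1 cultures by 1.11 ± 0.11 (adjusted p = 9.01e-05). H2-Eb1 rose by 0.84. The alpha chain H2-Aa, the invariant chain Cd74 and the peptide exchange factor H2-DMa did not pass, at 0.26, -0.12 and 0.09 (adjusted p = 0.231, 0.619 and 0.576). Cd74 stood at 6.65, 6.82, 6.70 and 6.75 in M1 cultures, against 7.16, 6.59, 7.11 and 6.56 in M2 cultures, while M0 cultures averaged 2.92 ± 0.24. H2-Aa and H2-DMa averaged 3.94 in M1 and 3.67 in M2 cultures and 3.39 in M1 and 3.29 in M2 cultures, with M0 at 0.28 and 0.41. Ciita, the transactivator of class II genes, averaged 0.80 ± 0.41 in M1 cultures and 0.62 ± 0.48 in M2 cultures and did not pass (adjusted p = 0.673), with M0 at -1.28. H2-Oa, a modulator of peptide exchange, was the exception in size, rising by 4.89.

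Co-stimulators and checkpoint ligands were higher in M1 cultures in 11 of 18 and lower in 4, with a median of 1.98 (within slides 1.97, 2.01 and 1.81), or 0.88 with each probe counted by itself. Cd40, through which T cells activate macrophages, averaged 5.13 ± 0.15 in M1 cultures and 0.63 ± 0.09 in M2 cultures, a 22.7-fold rise. Cd86, a ligand of CD28, had levels of 4.19, 3.78, 3.90 and 4.09 in M1 cultures, against 0.30, 0.24, 0.25 and 0.34 in M2 cultures, 13.1-fold higher in M1 cultures (adjusted p = 2.19e-07), while Cd80, the other CD28 ligand, gave -0.78 without passing (adjusted p = 0.0642). It passed without M1 replicate 3 or M2 replicate 4. The 2 ligands of PD-1 went opposite ways. Cd274, which encodes PD-L1, stood at 8.62, 8.28, 8.08 and 8.42 in M1 cultures, against 5.04, 4.82, 4.83 and 4.76 in M2 cultures, an 11.2-fold rise in M1 cultures. Pdcd1lg2, which encodes PD-L2 and is an IL-4 target, stood at -1.62, -1.87, -2.35 and -1.94 in M1 cultures, against 3.60, 3.29, 3.25 and 3.39 in M2 cultures, 40.1-fold lower in M1 cultures (adjusted p = 1.86e-07). The inhibitory receptor gene Cd200r1 was lower in M1 cultures by 3.44.

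The markers of alternative activation went the other way. Of 24 measured, 22 were lower in M1 cultures and 2 higher, with a median of -5.16 (within slides -5.17, -4.87 and -5.42). Retnla, the secreted protein also called Fizz1 or RELM-alpha, had levels of -0.42, -0.41, -0.45 and -0.01 in M1 cultures, against 9.85, 10.06, 9.55 and 9.88 in M2 cultures, 1142-fold lower in M1 cultures (adjusted p = 7.33e-09). Chil3, the chitinase-like protein Ym1, stood at -0.10, -0.43, 0.31 and 0.11 in M1 cultures, against 9.59, 9.69, 9.30 and 9.69 in M2 cultures, a 773-fold difference. Arg1, arginase 1, stood at 0.22, 0.43, -0.06 and 0.44 in M1 cultures, against 5.79, 5.17, 5.99 and 5.67 in M2 cultures, 42.1-fold lower in M1 cultures (adjusted p = 3.84e-07). M0 levels of Retnla, Chil3 and Arg1 averaged 1.39, 2.54 and -5.07, so for Arg1 both polarized cultures lay above M0. Mrc1, the mannose receptor CD206, had levels of 6.80, 6.37, 6.70 and 6.65 in M2 cultures and was well above background on no M1 array, which makes it at least 2092-fold lower in M1 cultures (adjusted p = 1.49e-08). Its M0 mean was 4.41.

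Lectins and eosinophil-associated ribonucleases belonged to the same side. The galactose lectin gene Clec10a fell by 4.94 in M1 cultures and Clec7a, the beta-glucan receptor dectin-1, by 4.99. Rnase2a, listed on the array under the older name Ear11, fell by 8.40, and Ear10 by 7.64. Ear1, Ear12 and the predicted gene Gm8221 were at least 188-fold, 295-fold and 175-fold lower, and Chil4 at least 507-fold lower. The Ear genes, and Chil3 with Chil4, are near-identical copies, so their separate values are uncertain. The exceptions that were higher in M1 cultures were Tgm2, a transglutaminase, at 8.73, 8.47, 8.31 and 8.54 in M1 cultures, against 4.31, 3.96, 4.30 and 4.00 in M2 cultures, and Mgl2, a lectin closely related to Clec10a, by 0.73. Cd163 and Alox15 did not reach the filter on dim probes in either group.

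The starts of 3 genes from this side are shown for comparison with those above, because they hold a match to TTC and GAA with any 4 bases between, the wider-spaced form that STAT6 prefers. The Ccl17 window also holds a GAS match.
Retnla (chr16:48842359-48842658, plus strand): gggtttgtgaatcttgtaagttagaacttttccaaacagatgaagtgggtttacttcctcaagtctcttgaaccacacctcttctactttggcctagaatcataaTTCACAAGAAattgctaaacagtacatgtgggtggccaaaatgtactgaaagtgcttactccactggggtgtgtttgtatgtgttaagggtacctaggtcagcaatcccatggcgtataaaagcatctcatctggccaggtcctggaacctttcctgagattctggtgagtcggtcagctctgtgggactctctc
Pdcd1lg2 (chr19:29410669-29410968, plus strand): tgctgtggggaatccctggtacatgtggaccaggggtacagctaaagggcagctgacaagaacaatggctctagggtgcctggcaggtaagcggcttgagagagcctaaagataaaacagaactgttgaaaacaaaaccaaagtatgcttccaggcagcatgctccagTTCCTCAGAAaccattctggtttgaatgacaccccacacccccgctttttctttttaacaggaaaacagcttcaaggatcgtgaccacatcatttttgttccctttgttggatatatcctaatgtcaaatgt
Ccl17 (chr8:94810203-94810502, plus strand): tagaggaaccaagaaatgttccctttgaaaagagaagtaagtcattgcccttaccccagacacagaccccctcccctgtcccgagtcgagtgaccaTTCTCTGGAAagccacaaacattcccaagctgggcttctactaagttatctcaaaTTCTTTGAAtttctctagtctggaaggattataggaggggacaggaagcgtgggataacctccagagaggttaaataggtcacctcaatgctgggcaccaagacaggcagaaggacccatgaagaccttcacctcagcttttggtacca
These matches began at -145 in Retnla, -82 in Pdcd1lg2 and -154 in Ccl17, and the GAS match of Ccl17 began at -99. The STAT6 type motif was present in 30 of 265 windows (11.3%) of genes lower in M1 cultures by over 3 on the log2 scale and in 14 of 288 windows (4.9%) of genes higher by over 3, against 5.9% of windows of genes tested. It was present in 4 of 17 windows of the alternative activation list (23.5%), and an ISRE match in 0 of 17. Lists that rose in M1 cultures held the STAT6 type motif too, in 3 of 17 inflammatory cytokine windows (17.6%) and 3 of 21 antiviral windows (14.3%). The GTPase list held it in 0 of 10. With so few windows the motif does not set the alternative activation list apart from the cytokine list.

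Chemokines that attract monocytes or mark alternative activation were lower in M1 cultures in 10 of 15 and higher in 3. Ccl24, an eosinophil attractant, averaged -2.88 ± 0.21 in M1 cultures and 4.78 ± 0.19 in M2 cultures, 204-fold lower in M1 cultures (adjusted p = 1.84e-08), with M0 at -2.95. Ccl17, a ligand of CCR4, averaged -3.65 ± 0.68 in M1 cultures and 0.33 ± 0.22 in M2 cultures, and its partner Ccl22 was at least 4.98-fold lower in M1 cultures. The related genes Ccl6 and Ccl9 fell by 8.28 and 5.17. Those that were higher in M1 cultures were Ccl2, Ccl7 and the receptor Ccr1, by 3.15, 1.52 and 1.34. Ccl2 averaged 8.79 ± 0.16 in M1 cultures and 5.64 ± 0.47 in M2 cultures, with M0 at 3.06, so both polarized cultures lay above M0.

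Genes known to respond to IL-10 were read because the label names that cytokine for the M2 cultures. Of 24 measured, 15 were higher and 2 lower in M1 cultures, with a median of 1.03 (within slides 1.10, 0.87 and 0.89), or 0.65 with each probe counted by itself and 0.68 with normexp background correction. Besides Socs3 and Il1rn, the atypical NF-kB inhibitor Bcl3 averaged 5.79 ± 0.16 in M1 cultures and 3.34 ± 0.10 in M2 cultures, with M0 at 4.03. The co-regulator Sbno2 averaged 1.90 ± 0.07 in M1 cultures and 0.58 ± 0.09 in M2 cultures, with M0 at 0.80, and the scavenger receptor gene Marco averaged 4.36 ± 0.23 in M1 cultures and 1.21 ± 0.25 in M2 cultures, with M0 at 3.11. In Socs3, Bcl3, Sbno2 and Marco the M2 mean was thus the lowest of the 3 groups. Nfil3 differed, averaging 4.97 in M1 and 4.45 in M2 cultures with M0 at 1.85, and its rise in M1 cultures was lost without M1 replicate 1 or 4 or M2 replicate 3. The repressor gene Etv3 was lower in M1 cultures by 1.61. Hmox1, heme oxygenase, spread widely among M2 cultures, at 3.70, 2.11, 5.61 and 5.58, against 5.77, 5.73, 5.28 and 5.97 in M1 cultures, and did not pass (adjusted p = 0.167). Several members of this list also respond to interferon-gamma or LPS, so the list does not separate those signals.

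Scavenging and apoptotic cell uptake genes were lower in M1 cultures in 13 of 22 and higher in 7, with a median of -1.30 (within slides -1.39, -1.25 and -1.34), or -0.72 with each probe counted by itself. Mfge8, which bridges phagocytes to apoptotic cells, averaged 4.92 ± 0.20 in M1 cultures and 9.24 ± 0.19 in M2 cultures, 20.0-fold lower in M1 cultures. The TAM receptor ligand genes Gas6 and Pros1 fell by 3.51 and 4.93, and the fatty acid and lipoprotein receptor Cd36 by 3.62. Stab2, a hyaluronan receptor, fell by 6.36, its probe being well above background on 2 of 4 M1 arrays, and the mean of its probes by 2.08. The receptor genes Mertk and Axl were higher in M1 cultures, by 0.99 and 1.20, and the scavenger receptor gene Msr1 by 1.83.

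Complement genes moved in both directions, also within a pathway. Of 18 genes, 9 were higher and 7 lower in M1 cultures. Beside Cfb, C3 averaged 8.52 ± 0.16 in M1 cultures and 5.95 ± 0.14 in M2 cultures and the classical proteases C1ra and C1s1 rose by 2.11 and 6.04. The C1s1 probe was well above background on 1 of 4 M2 arrays. The C1q chains fell together, with C1qa lower in M1 cultures by 4.05, C1qb by 3.57 and C1qc by 3.51. Properdin, Cfp, which stabilises the alternative pathway convertase, fell by 2.05. Fc receptors were also split, with 5 of 13 higher and 5 lower. The high-affinity IgG receptor Fcgr1 rose by 2.64 and Fcgr4 by 1.84, while the inhibitory receptor Fcgr2b averaged 2.83 ± 0.13 in M1 cultures and 5.09 ± 0.31 in M2 cultures, a fall of 2.26 in M1 cultures (adjusted p = 1.85e-05).

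Toll-like and C-type lectin receptors were higher in M1 cultures in 10 of 21 and lower in 7. Clec4e, the receptor Mincle for mycobacterial glycolipid, averaged 8.35 ± 0.16 in M1 cultures and 1.44 ± 0.17 in M2 cultures, a 121-fold rise (adjusted p = 1.89e-08). The cytosolic peptidoglycan sensors Nod2 and Nod1 rose by 5.93 and 4.69, and Tlr2 by 3.72. For Tlr2 the M0 mean was 4.06, close to that of the M1 cultures at 4.47, and the M2 cultures averaged 0.74. The endosomal receptors of RNA, Tlr7 and Tlr8, were lower in M1 cultures by 1.93 and 3.04.

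Metabolic genes shifted in groups. Glycolysis and hypoxia response genes were higher in M1 cultures in 23 of 27 and lower in 1, with a median of 1.71 (within slides 1.93, 1.61 and 1.50). The glucose transporter gene Slc2a1 stood at 6.73, 6.64, 6.64 and 6.78 in M1 cultures, against 3.32, 3.24, 3.34 and 3.21 in M2 cultures, a rise of 3.42 ± 0.11 (adjusted p = 1.32e-07). Pfkfb3, which makes the activator of phosphofructokinase, rose by 4.91, and the lactate exporter gene Slc16a3 by 4.63. Targets of the hypoxia-inducible factor without a place in glycolysis rose as well, with Egln3 higher by 7.40, Bnip3 by 4.74 and Vegfa by 4.15. The Egln3 probe was well above background on 2 of 4 M2 arrays. Hk1 was the member that fell, by 1.28, but its probes were called in both directions and its value is uncertain. Ldha and Gapdh rose by 1.30 and 0.63, and Aldoa did not pass, at 0.28 (adjusted p = 0.141).

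The Krebs cycle and respiratory chain moved less, with 15 of 26 lower and 2 higher in M1 cultures and a median of -0.46 (within slides -0.47, -0.35 and -0.62). The isocitrate dehydrogenase gene Idh1 averaged -1.87 ± 0.19 in M1 cultures and 2.04 ± 0.18 in M2 cultures, and fell by 3.91 in M1 cultures (adjusted p = 3.85e-07). Its product acts in the cytosol. The mitochondrial Idh2 averaged 3.00 ± 0.17 in M1 cultures and 4.78 ± 0.11 in M2 cultures, a fall of 1.78 (adjusted p = 1.33e-05). Fumarase, Fh1, fell by 1.29, while the complex II subunit gene Sdhb gave 0.06 and did not pass (adjusted p = 0.751).

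Sterol genes were lower in M1 cultures in 19 of 25 and higher in 2, with a median of -1.68 (within slides -1.64, -1.69 and -1.81). Fdps, which makes farnesyl diphosphate for the sterol pathway, had levels of 1.35, 0.98, 1.53 and 1.11 in M1 cultures, against 5.55, 5.74, 5.63 and 5.45 in M2 cultures, 20.4-fold lower in M1 cultures (adjusted p = 2.63e-07). Idi1, Cyp51 and Dhcr7 fell by 4.70, 4.56 and 4.40, and Hmgcs1, which acts early in the pathway, by 3.71. Apoe fell by 4.08, whereas the efflux pump gene Abca1 rose by 1.08. M0 means lay between the other groups for Idi1, Fdps and Hmgcs1, at 2.56, 3.71 and 3.99. Ch25h, which makes 25-hydroxycholesterol and is known as an interferon-stimulated gene, was lower in M1 cultures, at -3.03, -2.99, -3.01 and -2.81 in M1 cultures, against 0.90, 0.37, 0.58 and 0.32 in M2 cultures, with M0 at -3.78.

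Fatty acid genes were lower in M1 cultures in 18 of 25 and higher in 2, with a median of -1.10 (within slides -1.18, -1.10 and -1.28). Fabp4, a fatty acid carrier and Pparg target, averaged 1.44 ± 0.19 in M1 cultures and 7.05 ± 0.17 in M2 cultures, 48.7-fold lower in M1 cultures. Lpl, lipoprotein lipase, fell by 3.96, and the desaturase gene Scd2 by 2.85. Fasn and Scd1 were well above background on no M1 array and were at least 4.53-fold and 13.3-fold lower. Hilpda, an inhibitor of lipolysis that hypoxia induces, rose by 6.03, and the lipid droplet gene Plin2 fell by 1.10.

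NRF2 antioxidant targets were higher in M1 cultures in 11 of 17 and lower in 1, with a median of 0.94. Gsr, glutathione reductase, rose by 2.74, and the peroxiredoxin gene Prdx1 by 2.13. Nqo1, often used as an NRF2 reporter, gave -0.32 and did not pass (adjusted p = 0.226), with both cultures above the M0 mean of -3.39. Among iron genes, 8 of 19 were higher and 5 lower in M1 cultures. The transferrin receptor gene Tfrc stood at 0.75, 0.65, 0.64 and 0.94 in M1 cultures, against 6.08, 5.53, 6.04 and 5.93 in M2 cultures, 35.5-fold lower in M1 cultures (adjusted p = 1.23e-07), with M0 at 1.26. The iron exporter gene Slc40a1 averaged 0.41 in M1 and 1.40 in M2 cultures, against an M0 mean of 4.73. The ferritin genes Fth1 and Ftl1 gave -0.04 and -0.09 and did not pass (adjusted p = 0.848 and 0.691).

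Lysosomal genes were lower in M1 cultures in 16 of 25 and higher in 4, with a median of -0.71. Besides Atp6v0d2, the lysosomal lipase gene Lipa fell by 2.80 and Ctsl by 2.10, whereas Ctsc and Ctsh, cathepsins that trim amino termini, rose by 2.62 and 1.84. Matrix, protease and growth factor genes were lower in 15 of 27 and higher in 8, with a median of -1.67 (within slides -1.32, -1.83 and -1.78), or -0.70 with normexp background correction. Thbs1, thrombospondin 1, rose by 6.82 in M1 cultures. Igf1 averaged 2.57 ± 0.14 in M1 cultures and 7.58 ± 0.08 in M2 cultures, 32.3-fold lower in M1 cultures, and the metalloproteinase inhibitor gene Timp2, the elastase gene Mmp12 and osteopontin, Spp1, fell by 5.22, 3.28 and 4.10.

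**Figure D4:**
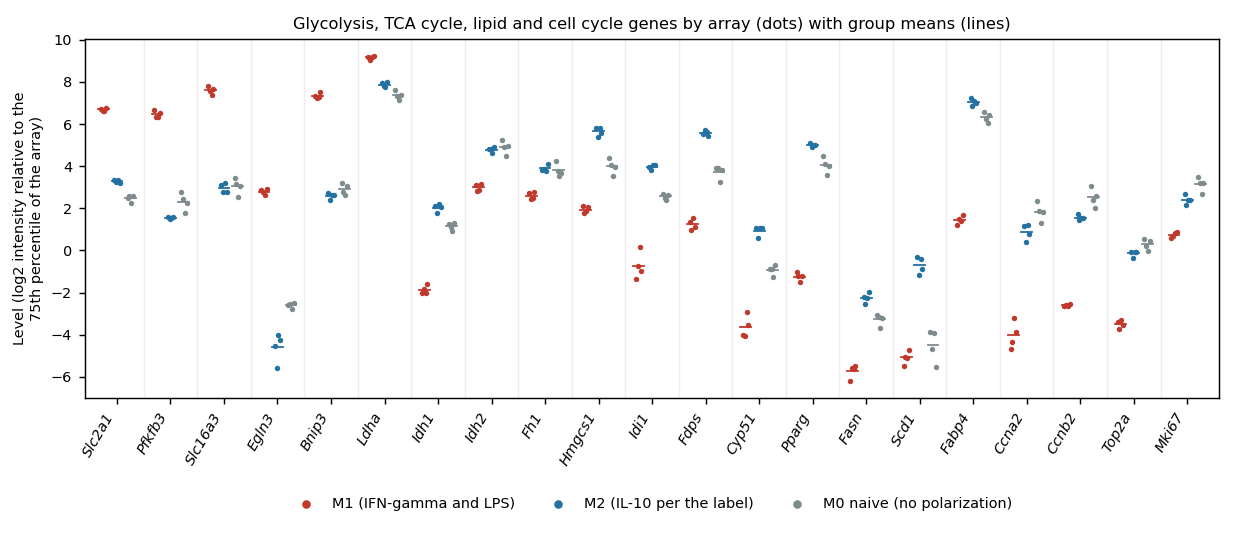
Level of glycolysis, Krebs cycle, lipid and cell cycle genes on each array (dots) with group means (lines), for M1, M2 and M0 naive cultures (n = 4 each). From Slc2a1 to Ldha the M1 dots are the highest, and from Idh1 onward they lie below the M2 dots.

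Cell cycle genes were lower in M1 cultures in 22 of 27 and higher in 2, with a median of -2.12 (within slides -2.10, -2.30 and -1.94). With the 2 members that were well above background on no M1 array set at their bound, the median was -1.80. It was -1.50 with normexp background correction. The cyclin A gene Ccna2 averaged -4.03 ± 0.66 in M1 cultures and 0.88 ± 0.37 in M2 cultures, a fall of 4.91 in M1 cultures (adjusted p = 9.47e-06). The mitotic cyclin gene Ccnb2 averaged -2.60 ± 0.04 in M1 cultures and 1.56 ± 0.11 in M2 cultures, a fall of 4.16 (adjusted p = 5.94e-08). The proliferation marker Mki67 fell by 1.66, the topoisomerase gene Top2a by 3.35, and the G1 cyclin gene Ccnd1 by 2.56. The 2 members that were higher in M1 cultures were the cyclin E gene Ccne1 and the cell cycle inhibitor Cdkn1a, by 2.36 and 1.47. M0 means of Ccna2, Ccnb2, Mki67 and Top2a were 1.84, 2.52, 3.15 and 0.30, above those of the M2 cultures in each case. In bulk cultures, fewer dividing cells and less of these transcripts per dividing cell cannot be told apart, and the same holds for every gene above.

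**Figure D5:**
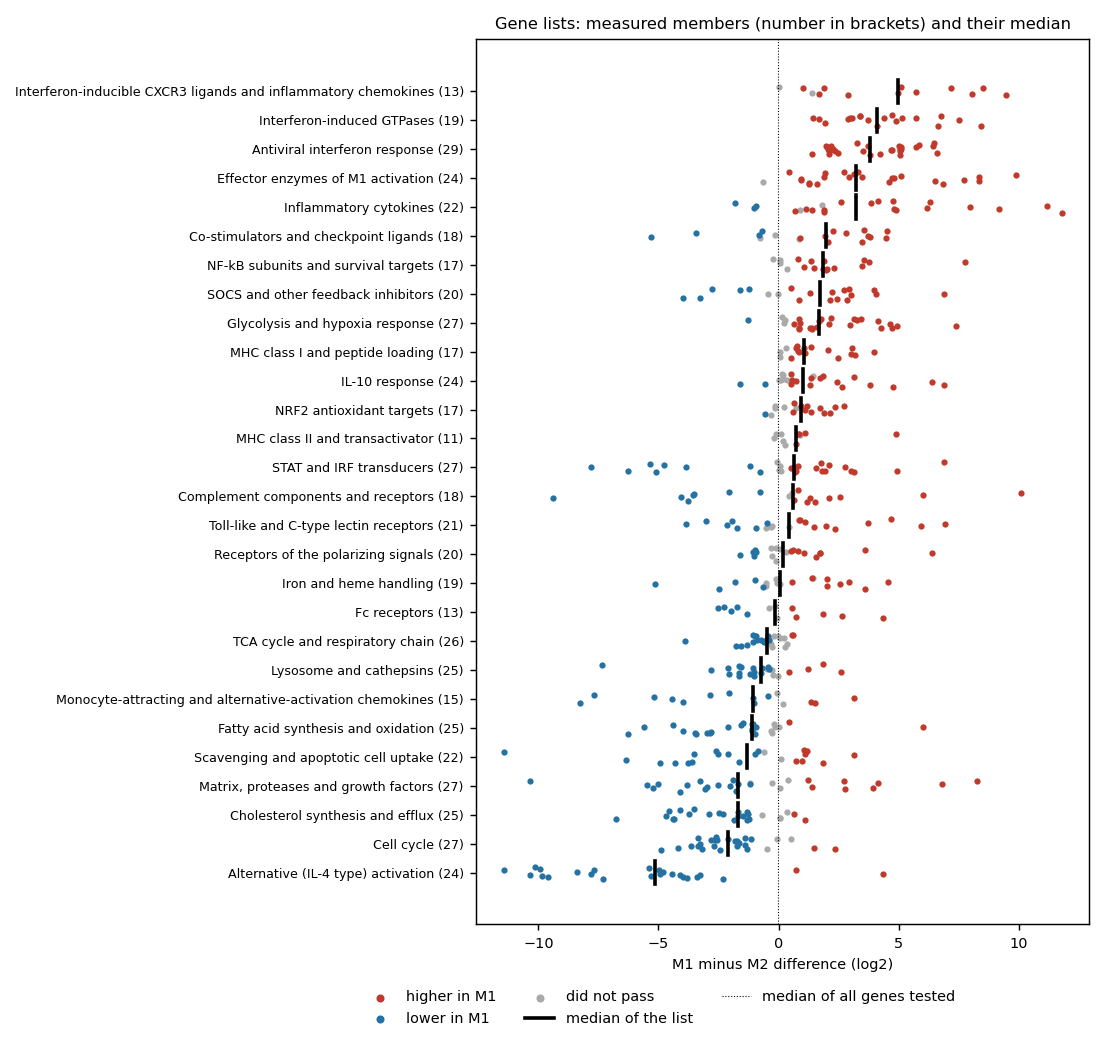
M1 minus M2 difference (log2) of each measured member of the 28 gene lists (dots), with the number measured in brackets, the list's median (black bar) and the median of everything tested (dotted line). Inflammatory chemokine, GTPase, antiviral, effector and cytokine lists have medians above 3, and the alternative activation list has the lowest, at -5.16.

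The cultures were selected by adhesion and not sorted, so markers of other cells were read beside these results. Summed levels below are on the linear scale, in units of the array's 75th percentile. For 13 neutrophil markers measured, 2 were higher and 5 lower in M1 cultures, and the sum ran from 306.6 to 588.9 in M1 and from 270.5 to 632.2 in M2 cultures. The brightest members carry this sum, because the list's median log2 level was only -1.35 to -0.69 in M1 and -0.34 to 0.28 in M2 cultures. Its overlap thus says little about the other members. The members that were higher were Prtn3 and Ly6g, and Ly6g, at least 395-fold higher in M1 cultures, had the largest difference of the list. Within that list S100a9 averaged -1.04 ± 0.29 in M1 cultures and 5.76 ± 0.26 in M2 cultures, with M0 at 7.22, while S100a8, its partner in calprotectin, gave 0.19 and did not pass (adjusted p = 0.409). The granule genes Ngp, Ltf and Retnlg were well above background on no M1 array, and were at least 20.4-fold, 28.5-fold and 4.50-fold lower there. Of 8 B cell markers measured, 1 was lower in M1 cultures, and the sums were 1.881 to 4.54 in M1 and 1.744 to 4.206 in M2 cultures. Of 7 T and NK cell markers, Cd2 and Prf1 were lower, with sums of 5.83 to 13.26 in M1 and 8.376 to 18.38 in M2 cultures. The defining T cell genes Cd3d, Cd3g and Cd8a, the NK gene Ncr1 and the dendritic cell genes Xcr1 and Clec9a did not reach the filter on dim probes in either group. Of 5 dendritic cell markers measured, Zbtb46 and Ccr7 were higher in M1 cultures, by 3.49 and 1.90, and Kmo was lower, with sums of 285.4 to 393.1 in M1 and 242 to 390 in M2 cultures. Of 5 eosinophil, basophil and mast cell markers, Siglecf was at least 11.4-fold lower in M1 cultures, Ccr3 was lower by 1.40 and Mcpt4 was higher, with sums of 3.491 to 11.26 in M1 and 2.85 to 16.93 in M2 cultures. Fibroblast, endothelial and erythroid markers passed in 1 of 5 (Dcn, higher in M1 cultures), 1 of 5 (Vwf, lower) and 0 of 3. The Vwf probes were called in both directions. Their sums in M1 cultures were 2.824 to 3.393, 12.36 to 24.95 and 0.24 to 0.307, and in M2 cultures 1.192 to 1.687, 47.63 to 61.31 and 0.2858 to 0.4135. The part of other cells in the results above was not tested.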

How the data were processed

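Total RNA of 8 marrow macrophage cultures was measured on 1-colour arrays. Per the file headers, the authors' scanner software, Feature Extraction 10.7.3.1 (12.5 per the submitters' processing notes), gave each deposited spot a background-subtracted intensity, and the deposited files hold no between-array normalization. Control spots were left out, and so were spots flagged in the files as non-uniform or as population outliers. This left 10 of the genes and probes tested with a missing array. Spots of a probe were averaged, and log2 levels were computed from the deposited intensities by subtracting each array's 75th percentile. Of 55681 probes, 27663 were named through an accession, 3398 through a symbol, 321 through a synonym and 1048 by the file's own name, while 23251 stayed unnamed. Probes well above background on 3 or more arrays of a group were kept, and the brightest stood for its gene. M1 and M2 cultures were compared with limma 3.58.1 (lmFit and eBayes, R 4.3.3) on these 8 arrays, with Benjamini-Hochberg adjustment at 0.05. Where a probe was well above background on no array of a group, its difference is given as a lower bound, "at least N-fold". This sets the bright group's mean against the dim group's mean of, per array, the higher of the lowest signal among probes well above background and the probe's own signal. No pairing of the cultures by replicate number was seen, and none was modelled in the main fit.

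The genes given with values were the 12 largest rises and falls measured on both sides, the 8 largest bounds in each direction, a fixed set of polarization genes, and members of fixed gene lists, those with the largest differences first. Some genes these rules name are not reported here. These choices were made with earlier results of these data known. The simulated-data check of the script ran before the fit. Promoter windows came from RefSeq on GRCm38.p6, and for Irf1, which has 2 windows, the first was used. The authors' processed value table was not used, because 22 of its 24 columns matched the scanner values of another sample best, 7 of 8 among the M1 and M2 columns those of another group. Alternatives were another scaling, background correction, filter, probe rule, moderation, slide or replicate block, all 16 marrow arrays in the fit, and leaving out each culture. Those 16 arrays include the naive M0 cultures and M0 cultures from post-sepsis mice.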

Additional observations from a re-analysis of the deposited data

Results flagged for a closer look

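Among 508 groups of 4 arrays, 1 group for each gene given with values and each culture type, 26 had a single array far from its neighbours by Dixon's ratio for 4 samples. Chance flags about 1 in 20 groups, so their number is close to what chance gives. In M1 cultures the arrays that stood apart had levels of 9.02 for Ccl2, -2.81 for Ch25h, 3.02 for Fcgr2b and -0.013 for Retnla (all replicate 4, each above the other three). Replicate 3 was the lowest for Csf1 at 0.51, for Cxcl2 at 3.15 and for Ifit1 at 4.09, and the highest for the dim Ear12 at -4.06. Replicate 2 was the lowest for Gapdh at 9.26 and for Gsr at 5.58, and replicate 1 for Il2rg at 4.67.

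In M2 cultures replicate 3 was the lowest for B2m at 8.69, Ctsl at 9.17, Fn1 at 6.13 and Irf1 at 5.08, and the highest for Dhcr7 at 1.77 and Il10 at -3.60. Replicate 2 was the lowest for Ccl7 at 4.29, Chil4 at 4.05, Cyp51 at 0.58, Il18bp at 2.77 and Top2a at -0.35. Replicate 4 was the lowest for Hdc at -6.40 and Sbno2 at 0.45, and replicate 1 the highest for Dusp2 at 3.09. The widest gap was in Ifnb1, where M2 replicate 2 stood at -2.41 and the other M2 arrays between -6.56 and -6.21. Among called genes, all of these arrays kept to their own side of the gap between M1 and M2 cultures.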

How the results depend on the processing

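The 11065 calls became 8900 to 11269 under the other scalings, background correction, sample sets, block and moderation with the same genes tested, 9280 to 11479 with 1 culture left out, and 13943 with each probe tested by itself. With 1 culture left out, 4631 to 5851 were higher and 4450 to 5908 lower in M1 cultures. With slide as a block 10241 passed. The replicate block gave 9476 calls. Same-numbered cultures correlated at -0.55, -0.14, -0.36 and 0.09 in their deviations from the group means, with 0 of 8 arrays closest to its own number. No pairing by number was seen in this way, but so few pairs cannot exclude it. Of 230 called genes given with values, 225 kept direction and call in every refit. The others were Gbp5 (-0.029 without M1 replicate 3, and -0.029 to 6.87 over all cultures left out), Hk1 (0.79 as the mean of its probes), Il27, Il4ra and Nfil3. Normexp moved 30 of these differences by over 1.5 times, the mean of a gene's probes 8 and quantile normalization 1. Under normexp the list medians were 2.15 for inflammatory cytokines, the list that moved most, 2.32 for effector genes and -1.50 for the cell cycle. They were 0.68 for the IL-10 response, 0.26 for class II and -0.70 for matrix genes. With each probe counted by itself they were 0.51 for feedback inhibitors, 0.88 for co-stimulators, 0.65 for the IL-10 response and -0.72 for scavenging. Of 37 lists, 8 changed the sign of their median under some setting. Of these, the endothelial markers alone had a median over 0.5 in size, at -0.61, and it was 0.13 within slide 1 and 0.04 by each probe. The cause was not tested. Signal over background limits genes given as bounds.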

Other observations

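Growth factors for mesenchymal cells differed by chain. Pdgfa, a platelet-derived growth factor chain, averaged 1.74 ± 0.09 in M1 cultures and 4.80 ± 0.19 in M2 cultures (difference -3.06 ± 0.13, adjusted p = 8.26e-07 by limma), and Pdgfc was well above background on no M1 array and at least 27.4-fold lower there. Pdgfb went the other way, at 4.88 ± 0.10 in M1 cultures and 2.15 ± 0.03 in M2 cultures. Tgfb1, the transforming growth factor beta 1 gene, fell by 1.78 in M1 cultures, whereas Tgfbi, a matrix protein named for its induction by that factor, rose by 3.95.

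Some genes were higher in both polarized cultures than in the M0 cultures, which were not tested. Slamf8, a receptor of the SLAM family, averaged 6.36 ± 0.09 in M1 cultures and 4.32 ± 0.23 in M2 cultures, with M0 at 1.32. Slamf1 averaged 2.50 ± 0.12 in M1 cultures and -1.31 ± 0.38 in M2 cultures, with M0 at -6.49, and the cystine transporter gene Slc7a11 averaged 1.33 ± 0.28 in M1 cultures and -0.56 ± 0.17 in M2 cultures, with M0 at -4.70. The monocyte attractant Ccl8 averaged 5.11 ± 0.13 in M1 cultures and 6.19 ± 0.17 in M2 cultures, lower in M1 than in M2 cultures by 1.08, with M0 at 0.76. Genes at their highest in M0 cultures included Cd5l, a secreted scavenger receptor protein, at 0.82 ± 0.17 in M1 cultures and 4.61 ± 0.15 in M2 cultures, with M0 at 7.65, and the transcription factor Maf, at 1.52 ± 0.38 in M1 cultures and 2.72 ± 0.26 in M2 cultures, with M0 at 5.09.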
